A study of Mus musculus with 27 samples.

Results

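The genes described here are the integrin subunits and laminin chains of the mouse, taken as every gene whose symbol has the form of an integrin alpha, integrin beta or laminin chain symbol and that was measured by a probe set listed with 1 gene. The rule gave 36 of 19937 genes on the array, of which 18 code for integrin alpha subunits, 8 for integrin beta subunits and 10 for laminin chains. For each gene the probe set with the highest mean over the 27 arrays was used, and only Itgad had more than 1 to choose from.

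Integrins are receptors on the cell surface, each built of 1 alpha and 1 beta subunit, that hold cells to the matrix or to other cells and pass signals in both directions across the membrane. Laminins are secreted trimers of an alpha, a beta and a gamma chain that form the sheet of the basement membrane, and several integrins bind them. Neural stem cells are known to use laminin-binding integrins to stay in contact with the matrix of their niche, and solid tumors exchange matrix proteins with the host tissue around them.

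RNA was measured in 10 immortalized neural stem cell lines, of which lines 3, 28, 31, 59, 95 and 116 were labelled p53 mutant and lines 119, 120, 123 and 331 wild type (WT), with 1 culture array per line. They were set against 2 cultures of normal neural stem cells (NSCs), labelled WT. A further set held 12 tumors, 3 each from line 1 (WT), line 31 (p53 mutant), line 59 (p53 mutant) and line 123 (WT), with 3 pieces of subcutaneous tissue (SubQ, WT) for comparison. Severe combined immunodeficient mice (CB17/ICR-Prkdcscid/IcrCrl) were given as the host strain for every sample, the cultured cells included, and such mice lack mature T and B lymphocytes. The tumors also carry subcutaneous tissue as their tissue label, and line 1 was measured only as tumors. The titles call every array a biological replicate. Nothing in the labels says what the p53 mutation was, how the lines were immortalized, or whether the tumors of a line came from separate mice. The p-values therefore cover the spread among these arrays, which may be technical in part.

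All values below are log2 expression levels, on which a difference of 1 is a 2-fold difference, and calls were made at an adjusted p below 0.05, with the adjustment over all genes. Levels of different genes cannot be compared on these arrays. The cell and the tissue arrays looked normalized as 2 sets, with array medians of 7.02 to 7.08 in the lines and 7.03 to 7.07 in the NSCs, but 5.47 to 5.57 in the tumors and 5.75 to 5.78 in SubQ. The SubQ arrays stood apart: their levels spread less over genes (SD 0.87 to 1.02) than those of the tumors (1.63 to 1.79), they correlated with each other at 0.656 to 0.720 against 0.936 to 0.985 among tumors, and Actb averaged 8.90 ± 0.80 (SD, n = 3) there against 12.26 ± 0.21 in the tumors (SD, n = 12). In the lines, 9 of 12 neural stem and glial markers were lower, and the list's mean log2 level was 6.68 to 7.31 over the lines against 10.02 and 10.08 in the NSCs. The lines are labelled as neural stem cells, and Fabp7, a radial glia marker, averaged 6.27 ± 1.11 in them (SD, n = 10) against 13.15 in both NSC cultures.

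Compared with the 2 normal NSC cultures, the 10 immortalized lines had higher levels of Itga3, Itga11, Itga5, Itgb5 and Itgb1 and of the laminin chains Lamb1, Lamb2 and Lamc1, and lower levels of Itga4 and Itgb8. These 10 of the 36 genes were called (27.8%), 8 higher and 2 lower, against a background of 15% of all genes called, 6.79% higher and 8.22% lower. The median change over the 36 genes was 0.10, against -0.01 over all genes. None of the 5 laminin alpha chains and none of the 5 leukocyte alpha subunits passed the test.

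Promoter windows of 5 called genes with large changes are shown, since these genes moved between the same cultures. Each runs from 250 bases before to 50 bases after the listed start, 5′ to 3′ on the gene's strand, from RefSeq on GRCm38.p6. Capitals mark matches to the GC box GGGCGG or the CCAAT box CCAAT on either strand. The windows lie on chr2:79255176-79255475 (plus strand, Itga4), chr9:62677605-62677904 (plus, Itga11), chr12:31265043-31265342 (plus, Lamb1), chr12:119238227-119238526 (minus, Itgb8) and chr15:103366742-103367041 (minus, Itga5).
Itga4: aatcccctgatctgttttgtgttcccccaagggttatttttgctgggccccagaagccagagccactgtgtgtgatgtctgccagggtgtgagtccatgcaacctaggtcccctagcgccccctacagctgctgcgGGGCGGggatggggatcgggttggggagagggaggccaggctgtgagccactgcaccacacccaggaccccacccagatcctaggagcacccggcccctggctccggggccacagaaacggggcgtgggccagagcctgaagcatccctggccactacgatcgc
Itga11: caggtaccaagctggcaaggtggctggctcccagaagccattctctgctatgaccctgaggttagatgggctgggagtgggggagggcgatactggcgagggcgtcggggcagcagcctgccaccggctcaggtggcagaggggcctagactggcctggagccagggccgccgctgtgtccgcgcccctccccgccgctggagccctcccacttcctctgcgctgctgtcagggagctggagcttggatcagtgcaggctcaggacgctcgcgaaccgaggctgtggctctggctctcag
Lamb1: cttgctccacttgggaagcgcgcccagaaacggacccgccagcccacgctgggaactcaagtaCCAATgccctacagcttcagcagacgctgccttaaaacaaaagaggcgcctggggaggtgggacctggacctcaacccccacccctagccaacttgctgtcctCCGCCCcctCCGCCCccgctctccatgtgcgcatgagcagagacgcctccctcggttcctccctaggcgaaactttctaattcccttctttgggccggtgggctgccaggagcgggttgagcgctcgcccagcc
Itgb8: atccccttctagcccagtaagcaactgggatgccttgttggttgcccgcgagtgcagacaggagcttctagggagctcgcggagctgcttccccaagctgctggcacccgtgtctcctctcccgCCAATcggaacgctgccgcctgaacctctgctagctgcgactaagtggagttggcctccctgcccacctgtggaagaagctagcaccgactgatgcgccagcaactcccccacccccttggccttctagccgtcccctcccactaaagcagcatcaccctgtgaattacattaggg
Itga5: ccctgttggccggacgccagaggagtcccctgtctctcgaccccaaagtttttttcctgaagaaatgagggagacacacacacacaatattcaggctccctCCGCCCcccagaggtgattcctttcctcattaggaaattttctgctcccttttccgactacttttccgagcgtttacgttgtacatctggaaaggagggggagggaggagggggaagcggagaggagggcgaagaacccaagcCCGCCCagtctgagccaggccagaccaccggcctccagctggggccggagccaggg

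Entries were listed for 23 of the 36 genes and 9 of the 10 called ones, in 26 and 10 windows, since 3 genes had 2 start sites each. The GC box was present in 7 of the 10 windows of called genes, both Itga3 windows among them, in 12 of the 26 windows of all members, and in 35.7% of all 32851 promoter windows. Except for Lamb2 (44.0%) and the second Itga3 window (52.3%), the windows of called genes had 58.7 to 68.0% GC. The median over all windows was 52.7%, and whether the GC box count exceeds that of windows of like GC content was not tested. CCAAT was present in 3 of the 10, against 37.4% of all windows. The AP-1 motif TGANTCA was in 1 of the 10 (7.8% of all) and GGAATG, the TEAD motif, in 1 (14.7%). None held TATAAA (13.6%), TGACGTCA (1.8%) or CACGTG (7.2%). The 2 windows shown of genes that were lower in the lines, Itga4 and Itgb8, differ in these matches, with a GC box only in Itga4 and CCAAT only in Itgb8. No matches overlap in the windows shown, the Itga11 window holds none, and a match is a description of letters only.

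Among the collagen-binding alpha subunits, Itga11, a partner of Itgb1 in a receptor of fibrillar collagen, had log2 levels of 7.29 (line 59) to 10.30 (line 120) over the lines, with a median of 8.92, against 6.69 and 6.68 in the NSCs. Every line lay above both NSC cultures, and the lines spread over 3 log2 units among themselves. The change was 2.23 ± 0.63 (SE, adjusted p = 0.0282). Itga1, another collagen-binding subunit, ranged more widely still, between 5.93 in line 3 and 10.63 in line 116, against 7.62 and 7.19 in the NSCs. Its groups overlapped, and the difference of 0.67 ± 0.92 (SE) did not pass the test (adjusted p = 0.746). Itga1 had a larger SD over the lines than 99.6% of all genes (1.41), and Itga11 than 98.3%. For Itga2 and Itga10 the differences were 0.03 and 0.04.

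Itga3, whose protein pairs with Itgb1 to bind laminins, showed the largest increase of the set, with log2 levels between 7.77 in line 331 and 10.15 in line 95 and a median of 9.34, against 6.83 and 6.74 in the NSCs. No line overlapped the NSCs, and the change was 2.41 ± 0.51 (SE, adjusted p = 0.00527), a 5.3-fold difference. The other laminin-binding subunits did not pass: Itga6 differed by -0.38 and Itga7 by -0.13. Itga6 ran between 8.54 in line 116 and 11.19 in line 123, on both sides of the NSC levels of 10.68 and 10.54.

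Itga5, the alpha subunit of the classical fibronectin receptor, lay between 9.27 and 10.56 over the lines, with a median of 9.60, against 8.31 and 8.24 in the NSCs. All 10 lines were above both NSC cultures, by 1.45 ± 0.28 (SE, adjusted p = 0.00316). Of the other subunits that recognise the RGD motif of matrix proteins, Itgav was at 10.71 to 11.68 over the lines against 10.97 and 10.78 in the NSCs, Itga8 differed by -0.32 and Itga2b by 0.05, and none of these passed.

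Itga4, which binds fibronectin and the endothelial protein VCAM-1, fell furthest. Its log2 level was 5.48 to 7.19 over the lines, with a median of 5.90, against 9.32 and 9.23 in the NSCs. Every line lay at least 2 log2 units below the NSCs, and the mean of the lines, 6.05 ± 0.57 (SD, n = 10), was under the 25th percentile of gene means, so that a signal above background was not shown there. The fitted change was -3.22 ± 0.38 (SE, adjusted p = 4.99e-05), and its size is not settled where the lower group has no signal shown above background. Lines 3 and 123 kept the most, at 7.19 and 6.89. Itga9, a related subunit, differed by -0.37 and was not called.

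Among beta subunits, Itgb1, the common partner of most matrix-binding alpha subunits, was at 11.90 to 12.48 over the lines against 11.53 and 11.48 in the NSCs. The groups did not overlap, and the change was 0.60 ± 0.13 (SE, adjusted p = 0.00545). Itgb5, a partner of Itgav that binds vitronectin, was at 9.03 to 9.77 with a median of 9.64, against 8.25 and 8.37. The change was 1.26 ± 0.15 (SE, adjusted p = 7.26e-05), and line 59 was the lowest of the lines. Itgb8, a partner of Itgav known for activating latent TGF-beta and enriched in neural tissue, was at 8.65 (line 331) to 10.28 (line 119) with a median of 9.72, against 11.31 and 10.98. Each line was below both NSC cultures, with a change of -1.49 ± 0.31 (SE, adjusted p = 0.00442). The remaining 5 beta subunits did not pass, and Itgb6, which epithelial cells use, was under the 25th percentile of gene means in both groups, with line 123 the highest at 7.50.

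Among laminin chains, Lamb1, the beta chain of many laminin trimers, had levels of 9.07 (line 120) to 10.24 (line 3) with a median of 9.97, against 7.85 and 7.81 in the NSCs. All lines were above both NSC cultures by over 1 log2 unit, and the change was 2.04 ± 0.26 (SE, adjusted p = 9.34e-05). Lamb2, the other widely used beta chain, was at 8.10 to 8.98 with a median of 8.47, against 7.50 and 7.73, a change of 0.87 ± 0.19 (SE, adjusted p = 0.00694). Lamc1, the gamma chain of most laminins, was at 9.69 to 10.37 with a median of 9.88, against 9.29 and 8.96, a change of 0.78 ± 0.17 (SE, adjusted p = 0.00554). It was not called with the replicate number as a block (0.60, adjusted p = 0.067). Only lines 3 and 28 share a number with an NSC culture, so that fit compares these lines alone with the NSCs. For all 3 chains no line overlapped the NSCs.

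The alpha chains Lama2 and Lama4 varied widely between lines. Lama2, the alpha chain of muscle and nerve laminins, was at 5.92 in line 95, 6.90 in line 59 and 7.55 to 9.80 in the other 8 lines, against 6.31 and 6.32 in the NSCs. Only line 95 lay below the NSCs, and the change of 1.75 ± 0.73 (SE) did not pass (adjusted p = 0.14), but did without line 95 (1.99, adjusted p = 0.0324). With the replicate number as a block the change was 1.84, in a fit that again compares only lines 3 and 28 with the NSCs. Lama4, an alpha chain of vessel and mesenchymal laminins, was at 6.53 in line 95 and at 9.62, 9.97 and 10.61 in lines 28, 119 and 331. It overlapped the NSC levels of 7.68 and 6.73, and the change was 1.01 ± 0.91 (SE, adjusted p = 0.574). The SD over the lines was larger than that of 99.5% of all genes for Lama4 and of 98.9% for Lama2. Lama5 differed by 0.11, Lama1 by -0.11, Lama3 by 0.05, Lamb3 by -0.09 and Lamc3 by 0.08.

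**Figure D1:**
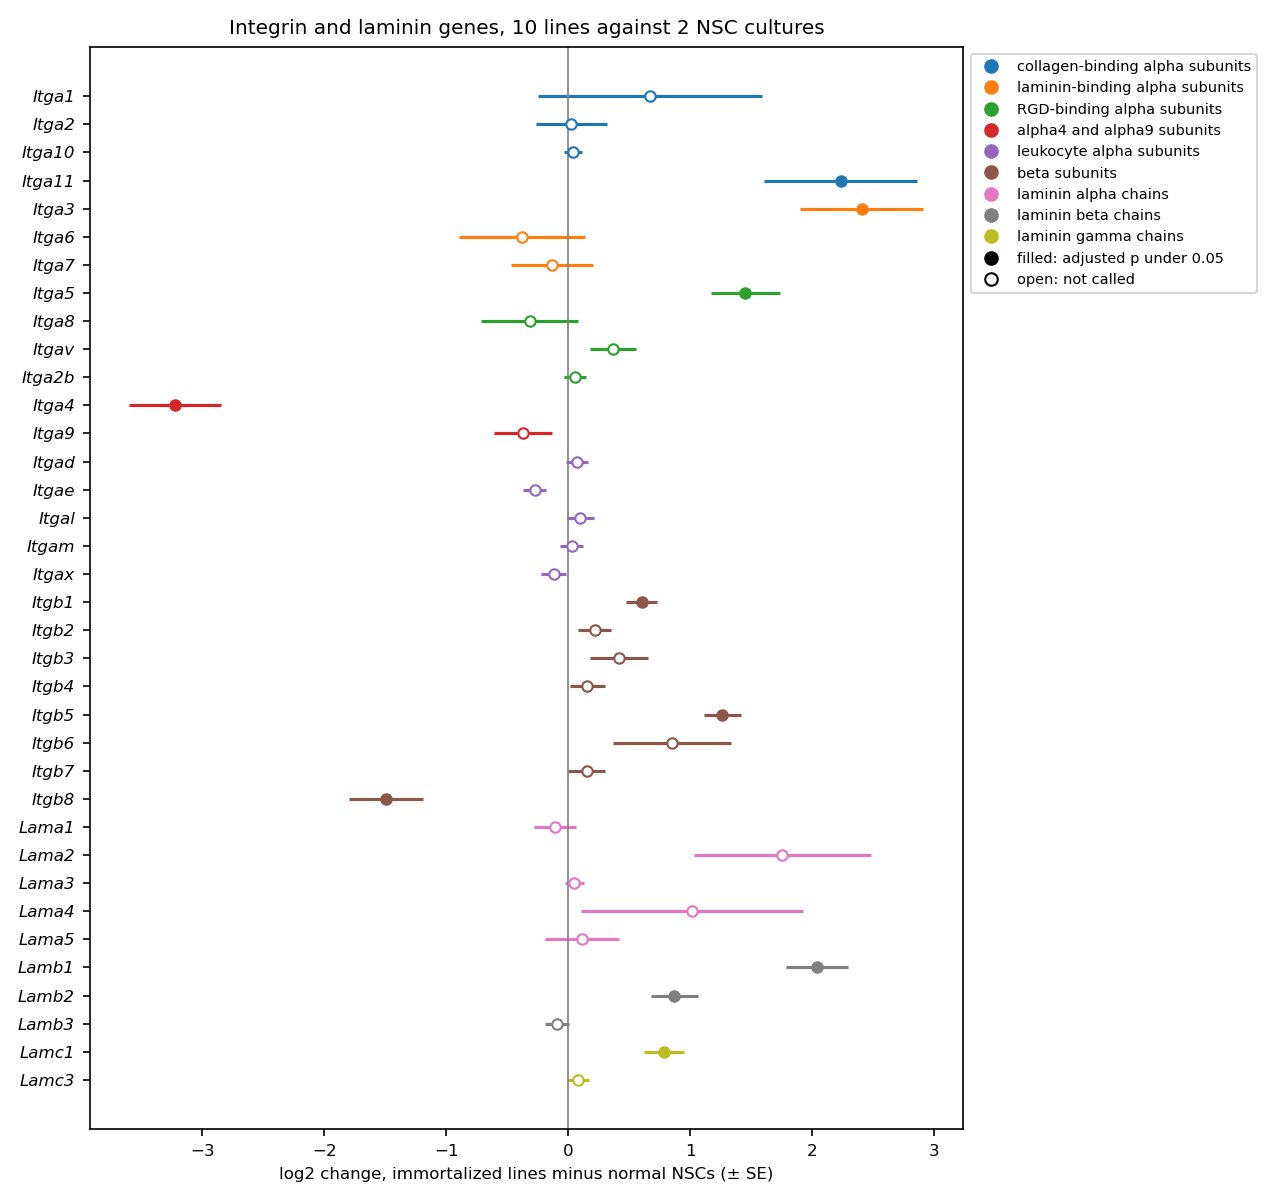
Log2 change of each of the 36 genes, 10 immortalized lines minus 2 normal NSC cultures (horizontal axis, log2 units, bars ± SE), ordered and coloured by role. Filled points were called: Itga3 lies furthest right at 2.41 and Itga4 furthest left at -3.22, while the 5 leukocyte alpha subunits sit near 0.

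**Figure D2:**
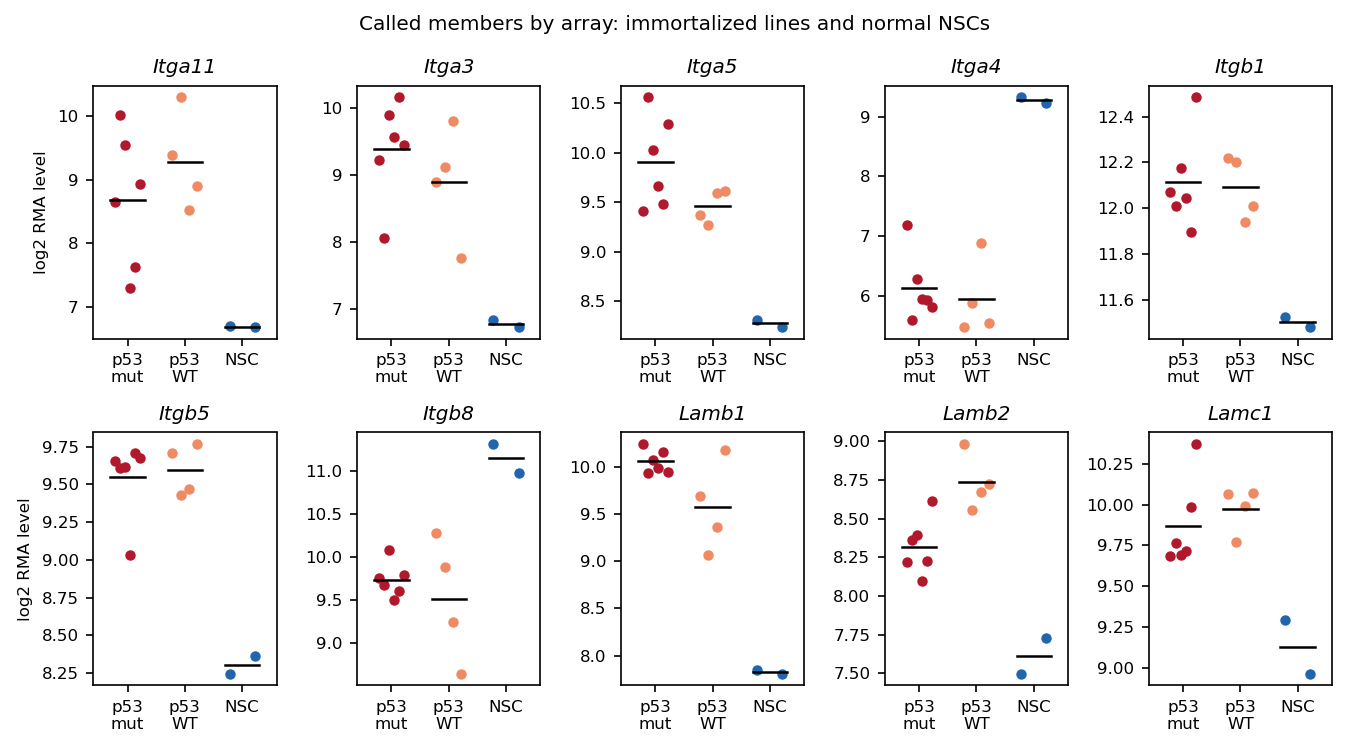
Log2 RMA level (vertical axis, a different range in each panel) of the 10 called genes in 6 p53 mutant lines, 4 p53 WT lines and 2 NSC cultures; each point is an array and the bar is the group mean. No line overlaps the NSCs in any panel, and Itga4 and Itgb8 are the 2 panels in which the NSCs are above the lines.

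In all, 9 of the 36 genes were above and 3 below the NSCs in every line, while 21.3% of all genes did not overlap between the groups, 10.1% above and 11.1% below. The count rests on the small NSC group. Leaving out the first NSC culture ended the calls of Itga3, Itga11, Itgb1, Itgb8 and Lamb2 (adjusted p of 0.0607 to 0.188), and leaving out the second those of Itga3, Itga11, Itga5, Itgb1 and Lamc1 (0.0574 to 0.196), with the lone culture taken to vary like the lines. Itga4, Itgb5 and Lamb1 were called in every setting in which they were tested.

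Genes that work with integrins were counted beside them, from lists chosen with earlier results of these data known. Over all genes, 6.79% were called higher and 8.22% lower. Of 34 genes of focal adhesions and integrin activation, which link integrins to actin, 15 were higher and none lower (median change 0.46), and their mean level was 8.83 to 9.07 over the lines against 8.26 and 8.31 in the NSCs. The largest changes were those of Actn1, which crosslinks actin (3.09), Apbb1ip, which brings talin to the membrane (2.70), Vcl, the adhesion protein vinculin (2.16), and Flna, an actin crosslinker that binds integrin tails (2.00). Tln1, the integrin activator talin, was higher by 0.78 ± 0.10 (SE, adjusted p = 7.38e-05).

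Of 28 integrin ligands other than laminins, 8 were higher and none lower, with a median change of 0.05. They included Thbs1, a matrix protein of platelets and stroma (4.999), Postn, which binds Itgav integrins (4.91), Ccn1 (4.38) and Fn1, the ligand of the Itga5 receptor (4.35). Of 24 basement membrane genes, 4 were higher, among them Nid2, which links laminin to collagen IV (1.94), Sparc (1.70) and Hspg2, the proteoglycan perlecan (1.19), and 2 were lower, Smoc1 (-1.52) and Agrn (-0.43). Of 15 genes for laminin receptors other than integrins and for their glycosylation, 3 were higher, with Utrn, a relative of dystrophin, at 1.62, and 2 lower, the mannosyltransferases Pomt1 (-0.71) and Pomt2 (-0.69).

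Markers of other cell types moved too. Of 13 fibroblast and mural markers, 5 were higher and none lower, with a mean level of 7.98 to 9.04 over the lines against 6.67 and 6.70 in the NSCs; Acta2, smooth muscle actin, was higher by 5.56. Together with the loss of the neural markers above, their part in the integrin and laminin differences was not tested. In such bulk samples, fewer cells of a type and less RNA per cell cannot be told apart. Of the macrophage and leukocyte list, only Csf1r passed (0.30), and no endothelial, keratinocyte, muscle, platelet or lymphocyte marker did. Lower in the lines were Cdh19 (-3.28) and S100b (-0.39), 2 of 7 Schwann cell markers, and Car3 (-2.52), 1 of 9 adipocyte markers.

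No integrin or laminin gene passed the test between the p53 mutant and the p53 WT lines. The count was 0 of 36 by limma, against a background of 0.0201% of all genes, 0.00502% higher and 0.0150% lower. An unadjusted p under 0.05 was found for 4 of the 36, but the share of all genes at that unadjusted threshold was not counted. Lama4 had the largest difference, -1.53 ± 0.67 (SE), and the lowest adjusted p, 0.412, was that of Lamb2. In the mutant lines Lamb2 was at 8.10 to 8.61, with a median of 8.29, against 8.55, 8.67, 8.73 and 8.98 in the WT lines, and the groups overlapped by 1 line, line 116. For Lama4 the mutant lines lay between 6.53 and 9.62, with a median of 7.40, against 7.77, 8.18, 9.97 and 10.61 in the WT lines. Lamb1 ran the other way, with 9.94 to 10.24 in mutant lines against 9.07, 9.37, 9.69 and 10.19 in WT lines, a difference of 0.48 ± 0.18 (SE, adjusted p = 0.498), and Itga8 differed by -0.83 ± 0.26 (SE, adjusted p = 0.419). No gene of the set separated the 2 genotypes completely, as 1.69% of all genes did. The SE of the differences had a median of 0.155, which limits how small a difference could be detected.

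Levels of known partners were compared over the 10 lines. Of 24 pairs of subunits known to form a receptor or a laminin, 1 passed after Benjamini-Hochberg adjustment. Itga2, a collagen-binding alpha subunit, ran against its partner Itgb1 (Pearson r = -0.86, permutation p = 0.0006, adjusted p = 0.0144; Spearman rho = -0.90, permutation p = 0.00079, adjusted p = 0.019). The highest Itga2 levels, 7.91, 7.76 and 7.66 in lines 95, 123 and 331, came with Itgb1 levels of 11.90, 11.94 and 12.01, and the lowest, 6.53 in line 116, with the highest Itgb1 level of 12.48. Without the 2 lines farthest from the median of Itga2, r was -0.79, and within the 6 mutant lines it was -0.84. The pair did not pass when arrays were centred on their medians (adjusted p = 0.0586) or without line 95 (0.072), 116 (0.181) or 123 (0.0931), while r stayed between -0.92 and -0.83 over these settings and the other lines left out.

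The laminin receptors and the laminin chains gave no call. Itga6 and Itgb4, which together anchor epithelia to laminin, had r = 0.71 (permutation adjusted p = 0.205), and Lama3 and Lamb3, chains of the same epithelial laminin, had r = 0.69 (permutation adjusted p = 0.205). Lamb1 and Lamc1, though both higher in all lines, had r = -0.01 (permutation adjusted p = 0.975). Lamb2 and Lamc1 had r = 0.60 and rho = 0.77 (permutation adjusted p = 0.305 and 0.147).

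Relative to SubQ, the tumors had higher levels of Itgb1, Itgav, Lamb1, Itga6, Itgb8, Itga5, Lamc1, Itga4 and Lama4, and of Itgam and Itgb2, which leukocytes use, and lower levels of Itgad, Itgb6, Itgal, Itga2b and Lamc3. In all, 26 of 36 genes were called (72.2%), 17 higher and 9 lower, against a background of 76.5% of all genes, 30.7% higher and 45.8% lower. The share called was thus near that of all genes. The median gene changed by -0.28 (-0.14 after centring arrays, -0.11 after quantile normalization), the median of the 36 genes was 0.25, and 27 of the 36 lay above the median gene. With the SubQ arrays as far apart from the others as described, changes relative to the median gene are given too. They do not correct for the narrow range of the SubQ arrays. Among the 9968 genes above the median level, the median change was 0.81, with 5907 called higher and 1246 lower. Relative to the median of all genes, the 10 largest increases were those of Itgb1 (4.43), Itgav (3.25), Lamb1 (2.90), Itga6 (2.64), Itgb8 (2.56), Itga5 (2.52), Lamc1 (2.25), Itga4 (1.96), Lama4 (1.95) and Itgam (1.86). The 5 largest decreases were those of Itgad (-0.77), Itgb6 (-0.59), Itgal (-0.57), Itga2b (-0.38) and Lamc3 (-0.21). In 12 of the 36 genes all tumors lay above and in 5 below all SubQ samples, against 21.9% and 30.6% of all genes (52.5% together). Itgb6 was under the 25th percentile of gene means in both groups, and its call was lost after quantile normalization (-0.04, adjusted p = 0.803).

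Itgb1 changed most, at 10.52 to 11.48 over the 12 tumors with a median of 11.12, against 6.66, 7.29 and 6.77 in SubQ. Its change was 4.15 ± 0.20 (SE, adjusted p = 7.01e-11). Itgav, the alpha subunit that pairs with most of the other beta subunits, was at 8.87 to 9.88 with a median of 9.54, against 5.81, 6.56 and 7.18, a change of 2.97 ± 0.23 (SE, adjusted p = 1e-08). No tumor overlapped SubQ for either gene. Itgb5 was called too (1.38), but reversed to -0.03 after quantile normalization (adjusted p = 0.958).

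The laminin-binding Itga6 was at 7.43 to 9.61 with a median of 8.34, against 5.52, 6.25 and 6.42 in SubQ, a change of 2.36 ± 0.38 (SE, adjusted p = 2.79e-05). Itga5 was at 6.66 to 9.01 with a median of 7.78, against 5.45, 5.08 and 5.95, a change of 2.24 ± 0.38 (SE, adjusted p = 4.7e-05). Itga4, low in the lines, was at 7.05 to 7.99 with a median of 7.21, against 6.28, 5.38 and 5.32, a change of 1.68 ± 0.21 (SE, adjusted p = 1.65e-06). All tumors were above all SubQ samples for these genes, as for Itga1 (1.39).

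Among laminin chains, Lamb1 was at 8.12 to 9.40 with a median of 9.06, against 6.25, 6.11 and 6.45 in SubQ, a change of 2.62 ± 0.26 (SE, adjusted p = 1.52e-07). Lamc1 was at 7.62 to 8.93 with a median of 8.29, against 5.41, 6.65 and 7.05, a change of 1.97 ± 0.30 (SE, adjusted p = 1.19e-05), and Lama4 at 7.36 to 8.25 with a median of 7.79, against 5.71, 6.47 and 6.25, a change of 1.67 ± 0.20 (SE, adjusted p = 9.22e-07). Each of the 3 was above SubQ in every tumor. Lama3, a chain of skin laminin, differed by -0.49 (adjusted p = 0.0104), and Lama5, the alpha chain of many epithelial basement membranes, by -0.29 (adjusted p = 0.0388), which is -0.01 relative to the median gene. Neither call held after quantile normalization. Lama2 could not be compared well: 3 tumors and all 3 SubQ samples held one identical value of 6.27. In Lama3, 4 tumors held one identical value of 5.34, which also limits its comparison.

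Leukocyte subunits split. Itgam, the CD11b chain of myeloid cells, was at 6.56 to 8.23 with a median of 7.37, against 5.68, 5.97 and 5.65 in SubQ, a change of 1.58 ± 0.31 (SE, adjusted p = 0.000186). Its beta partner Itgb2 was at 5.56 to 6.72 with a median of 6.06, against 5.27, 5.13 and 4.68, a change of 1.09 ± 0.20 (SE, adjusted p = 9.31e-05). No tumor overlapped SubQ for either, and the SubQ mean of Itgb2 was under the 25th percentile of gene means, so that the size of its change is not settled. Itgal, the LFA-1 chain of lymphocytes, was lower, at 4.96 to 5.35 against 6.41, 5.95 and 5.62 (log2 change -0.85, adjusted p = 4.05e-05), and Itgad was lower at 4.36 to 4.99 against 5.60, 5.44 and 6.34 (-1.05, adjusted p = 5.06e-05), with its tumor mean under the 25th percentile of gene means and the size of the change likewise not settled.

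In the same samples, 14 of 15 macrophage and leukocyte markers were higher and none lower, with a mean level of 7.94 to 8.99 over the tumors against 6.08 to 6.25 in SubQ. Over all genes, 30.7% were called higher and 45.8% lower. All 9 T and B lymphocyte markers were lower, with a mean level of 4.41 to 4.80 against 5.54 to 5.78. The host strain lacks mature lymphocytes, and the SubQ levels lay near the SubQ array medians of 5.75 to 5.78. The tumor levels lay near 4.75, the 25th percentile of gene means in tumors. A difference in lymphocytes is therefore not shown by these markers. Of the markers of skin and subcutis, 7 of 12 for keratinocytes, 10 of 13 for skeletal muscle and 9 of 9 for adipocytes were lower and none higher; the muscle list averaged 5.33 to 7.56 over the tumors against 7.36 to 8.04 in SubQ. Of 13 fibroblast and mural markers, 8 were higher, with Acta2 (4.37) and Pdgfra (2.21) first, and 2 lower, with a mean level of 7.91 to 8.65 against 6.86 to 7.25. Of 12 endothelial markers, 4 were higher, among them Emcn (2.18), Cdh5 (1.76) and Pecam1 (1.67), and 3 lower, with a mean level of 5.89 to 6.99 against 5.69 to 5.99. Lower were also 4 of 6 platelet, 4 of 7 Schwann cell and 6 of 12 neural stem and glial markers, with none, 1 and 1 higher. The part of these cell types in the integrin and laminin changes was not tested.

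The lists of integrin and laminin partners each had a smaller share called than all genes (76.5%, 30.7% higher and 45.8% lower). Of the 34 focal adhesion genes, 20 were higher and 4 lower, led by Rsu1 (3.70), the kinase-like Ilk (3.43) and its partner Lims1 (3.05), which together join integrin tails to actin. Of 28 other integrin ligands, 12 were higher and 8 lower, with Fn1 (5.22), Tnc (4.17) and Ccn1 (3.39) at the top and the fibrinogen chain Fga (-1.38) at the bottom. Basement membrane genes divided, 5 higher and 11 lower of 24: Sparc (3.79), Pxdn (2.45) and Nid1, which binds the laminin gamma chain (1.68), were higher, and the collagen IV chains Col4a2 to Col4a6 were among the lower ones (-0.45 to -0.83). Of 15 other laminin receptors and their partners, 6 were higher, with Rpsa (2.46) and Sgcb (2.21) first, and 3 lower, Dmd, the muscle protein dystrophin, furthest (-1.81).

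Among the members, Itgb8 was called at 2.28 (adjusted p = 0.000587) with tumors at 5.89 to 8.90, against 4.70, 5.85 and 6.11 in SubQ, where the highest SubQ sample exceeded 1 line 1 tumor. Calls that lost the threshold without any 1 of the 3 SubQ samples were those of Itgax and Itgb4. Over these 3 settings 19 to 24 of the 36 genes were called, against 14204 to 14675 of all 19937 genes.

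The 4 tumor lines differed from each other in Itgb8, Itgax, Itga11, Lamb1 and Itga6. These 5 of 36 genes (13.9%) passed the moderated F test, against a background of 5.07% of all genes. An unadjusted p under 0.05 was found for 11, with no share of all genes counted at that unadjusted threshold. The gap between the highest and the lowest line mean had a median of 0.51 over the 36 genes and 0.33 over all genes.

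Itgb8, the TGF-beta-activating beta subunit, was at 6.64, 5.89 and 6.69 in line 1 tumors, against 8.19, 8.03 and 8.90 in line 31, 8.34, 8.16 and 8.45 in line 59, and 8.01, 8.57 and 8.16 in line 123. Line 1 stood below all 9 other tumors, and the other 3 lines overlapped. The line means spanned 1.97 (adjusted p = 0.00207), and line 1 differed from the mean of the others by -1.91 ± 0.21 (SE, adjusted p = 0.000378; background 4.62% of genes called for that line, 2.33% higher and 2.29% lower).

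Itgax, the CD11c chain of dendritic cells and some macrophages, was at 4.75, 5.55 and 5.20 in line 1, against 5.94, 6.65 and 5.98 in line 31, 7.35, 7.14 and 6.65 in line 59, and 6.33, 6.75 and 6.90 in line 123. Line 1 was again below every other tumor, on both sides of the SubQ levels of 5.13, 5.34 and 5.34, and line 59 had the highest mean. The line means spanned 1.88 (adjusted p = 0.00546). Line 1 differed by -1.47 ± 0.21 (SE, adjusted p = 0.00235) and line 59 by 1.04 ± 0.21 (SE, adjusted p = 0.037; background 1.17%, 0.752% higher), but the call for line 59 was lost on leaving out any of 7 single tumors.

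Leukocyte markers moved with line 1 in part. Adgre1, the macrophage marker F4/80, and Aif1 were lower there (-0.93 and -0.80), 2 of the 15 markers of the list, whose mean level was 7.94 to 8.17 in line 1, against 8.71 to 8.99 in line 31, 8.22 to 8.91 in line 59 and 8.23 to 8.40 in line 123. In line 1 the endothelial list stood higher, at 6.74 to 6.99 against 5.89 to 6.34 over the other 9 tumors, with Tek, the angiopoietin receptor, higher by 3.78 and Pecam1 by 0.68. The platelet genes Ppbp (3.18) and Pf4 (2.04) and Pdgfra (2.38), a fibroblast marker, were higher in line 1 too, and Cdh19 (-0.91), Sox2 (-1.61) and the integrin ligand nephronectin, Npnt (-0.88), were lower. The part of any of these in the Itgb8 and Itgax differences was not tested.

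Itga11 was at 7.14, 7.93 and 8.04 in line 123, against 5.97, 6.28 and 6.23 in line 1, 5.76, 6.94 and 5.97 in line 31, and 6.02, 5.68 and 6.17 in line 59. All line 123 tumors were above the other 9, with 1 line 31 tumor next. The line means spanned 1.75 (adjusted p = 0.0135), and line 123 differed by 1.59 ± 0.24 (SE, adjusted p = 0.00949; background 0.848%, 0.627% higher and 0.221% lower). Without the second or the third line 123 tumor the call was lost (adjusted p = 0.0671 and 0.101).

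Itga6 was at 9.61, 8.76 and 9.56 in line 123, against 7.43, 8.23 and 7.63 in line 1, 8.87, 8.63 and 7.94 in line 31, and 8.44, 8.01 and 7.95 in line 59. Only 1 line 31 tumor reached into the range of line 123. The line means spanned 1.54 (adjusted p = 0.034) and line 123 differed by 1.18 ± 0.24 (SE, adjusted p = 0.0424), a call lost on leaving out any of 7 single tumors, with adjusted p up to 0.28. The same line had the highest Itga6 level of the 10 lines in culture, 11.19.

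Keratinocyte markers, which accompany Itga6 in skin, averaged 6.41 to 6.93 in line 123 tumors, against 4.95 to 5.22 in line 1, 5.05 to 6.16 in line 31 and 4.84, 5.13 and 6.98 in line 59, although none of the 12 passed on its own. The line 123 tumors were high in both the keratinocyte list and Itga6. The third line 59 tumor had the highest keratinocyte level, 6.98, with Itga6 at 7.95, and the 2 were not compared over the tumors by a test. Itgb4, the epithelial partner of Itga6, was at 6.13, 6.34 and 6.73 in line 123 and did not pass (0.42, adjusted p = 0.281). The part of skin cells in the Itga6 difference was not tested. Nid1, the basement membrane linker, was higher in line 123 by 1.80 ± 0.19 (SE, adjusted p = 0.000638).

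Lamb1 was at 8.12, 8.29 and 8.21 in line 31, against 8.71, 9.34 and 9.31 in line 1, 9.40, 9.40 and 9.08 in line 59, and 9.03, 8.69 and 9.12 in line 123. Line 31 lay below all 9 other tumors, while the other lines overlapped. The line means spanned 1.09 (adjusted p = 0.0155), and line 31 differed by -0.92 ± 0.15 (SE, adjusted p = 0.013; background 1.39%, 0.762% lower), a call lost without its first tumor (adjusted p = 0.101). In culture, line 31 was not low in Lamb1, with 10.08 against 9.99 in line 59 and 9.37 in line 123. Nid1 (-1.46) and the laminin receptor partner Sgce (-2.67) were also lower in line 31 tumors.

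Other members gave differences between lines that did not pass. Lamc1 (range 0.89, adjusted p = 0.112) was lowest in line 31, at 7.62 to 8.18, as Lamb1 was, and highest in line 123, at 8.59 to 8.93. Itga7, a laminin-binding subunit of muscle (1.03, adjusted p = 0.135), was at 6.02 to 6.86 in line 59 against 4.93 to 5.93 in line 31, and Itga3 (0.99, adjusted p = 0.182) was at 6.42 to 7.77 in line 123 against 5.57 to 6.65 in line 1. Single tumors stood out: the second line 1 tumor had the highest Itgb3 level, 8.26, with the others at 6.11 to 6.92, and the highest Itga5 level, 9.01. The second line 31 tumor had the highest Itgb5 level, 10.03, with the others at 7.78 to 9.02.

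**Figure D3:**
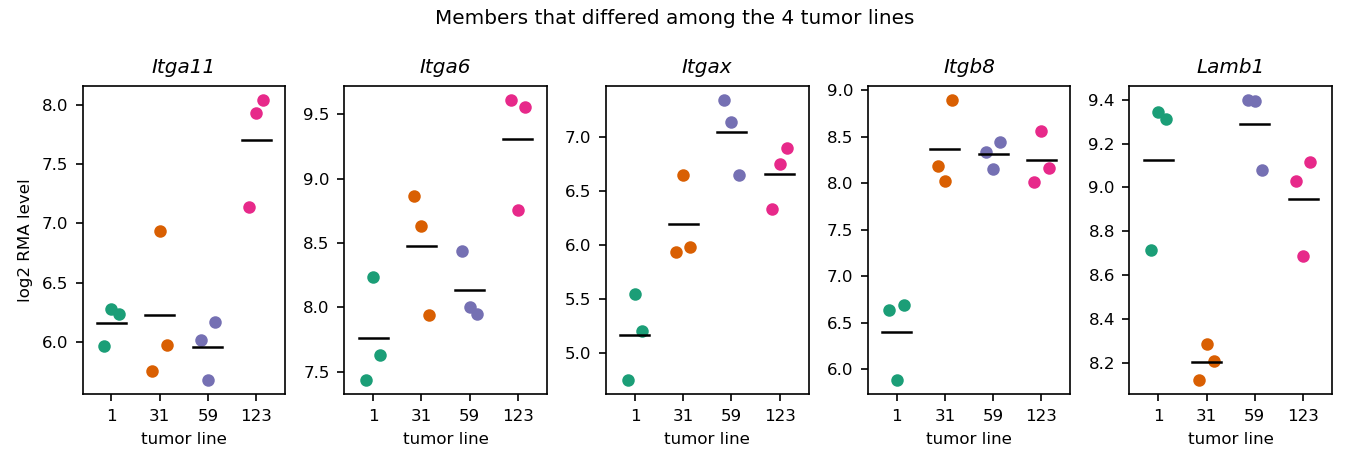
Log2 RMA level (vertical axis, a different range in each panel) of the 5 genes that differed among tumor lines, in 3 tumors each of lines 1, 31, 59 and 123 (horizontal axis); points are tumors and bars line means. Line 1 is lowest for Itgb8 and Itgax, line 123 highest for Itga11 and Itga6, and line 31 lowest for Lamb1.

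**Figure D4:**
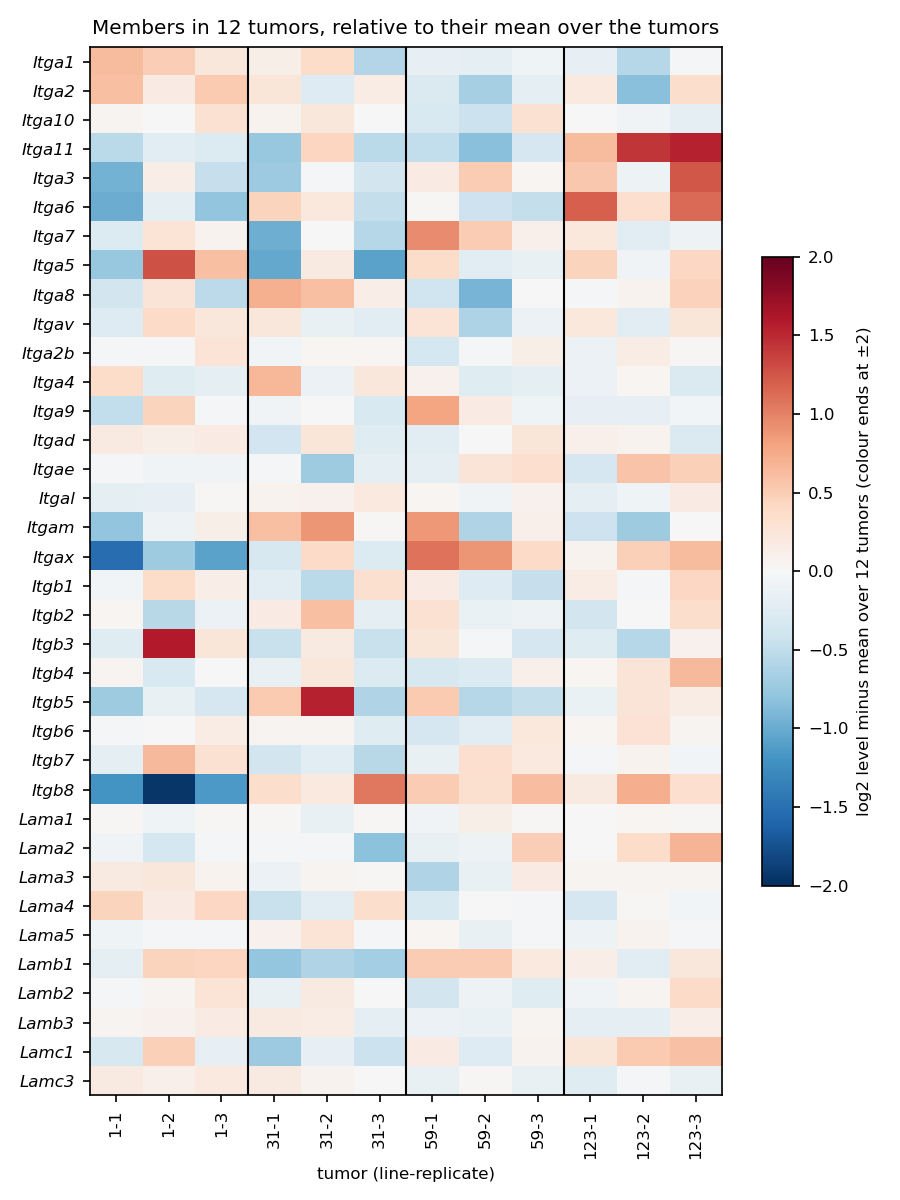
Log2 level of each of the 36 genes (rows, ordered by role) in the 12 tumors (columns, line and replicate), relative to the mean over the 12 tumors; red is above and blue below that mean, with colours ending at 2 log2 units. The darkest blue cells are Itgb8 and Itgax in line 1, and the darkest red ones include Itga11 in line 123, Itgb3 in the second line 1 tumor and Itgb5 in the second line 31 tumor.

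Tumors of lines 31, 59 and 123 could be set beside the same lines in culture, only as ranks, since the cell and tissue arrays looked normalized as separate sets. The percentile of a gene among all 19937 genes of its array was used, with 1 culture array per line and no test. In all 9 tumors, 10 of the 36 genes ranked higher than in their own line in culture and 4 lower, against 15.7% and 23.9% of all genes. The higher ones were Itga1, Itga4, Itga9, Itgam, Itgax, Itgb2, Itgb3, Itgb4, Itgb5 and Lama4, and the lower ones Itga3, Itgad, Lama5 and Lamb2.

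The 3 myeloid subunits ranked far higher in the tumors. Itgam ranked at percentiles 71.1 to 91.3 over the 9 tumors, against 16.2, 18.4 and 17.3 in lines 31, 59 and 123 in culture. Itgax ranked at 57.5 to 79.6, against 16.6, 19.3 and 19.3, and Itgb2 at 52.1 to 70.8, against 40.7, 32.9 and 38.2. In culture the levels of Itgam and Itgax, 5.60 to 5.92 in these lines, ranked under the 25th percentile of genes, where a signal above background was not shown.

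Itga4, which was low in all lines, ranked at 75.8 to 88.9 in the tumors, against 28.7, 19.8 and 40.0 in culture. Lama4 ranked at 81.6 to 90.1, against 57.9, 41.7 and 60.3. In the other direction Itga3, which had been higher in the lines than in NSCs, ranked at 53.7 to 85.9 in the tumors against 90.1, 88.2 and 89.2 in culture, and Lama5 at 41.8 to 52.1 against 65.2, 71.3 and 62.0. Itgb1 ranked at 99.3 to 99.7 in tumors and 99.3 to 99.4 in culture, and Itgav at 94.9 to 98.1 against 97.9. Ranks this near the top can hide a change in level. With ranks turned into log2 levels by quantile normalization of these arrays, the median tumor minus culture difference for Itgb1 was 0.412 (-0.199 to 0.675). For Itgav it was -0.223 (-0.801 to 0.082). For Lamb1 line 31 tumors ranked at 90.1 to 91.7, against 91.5 in culture, whereas line 123 tumors ranked at 94.4 to 95.9, against 84.8.

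**Figure D5:**
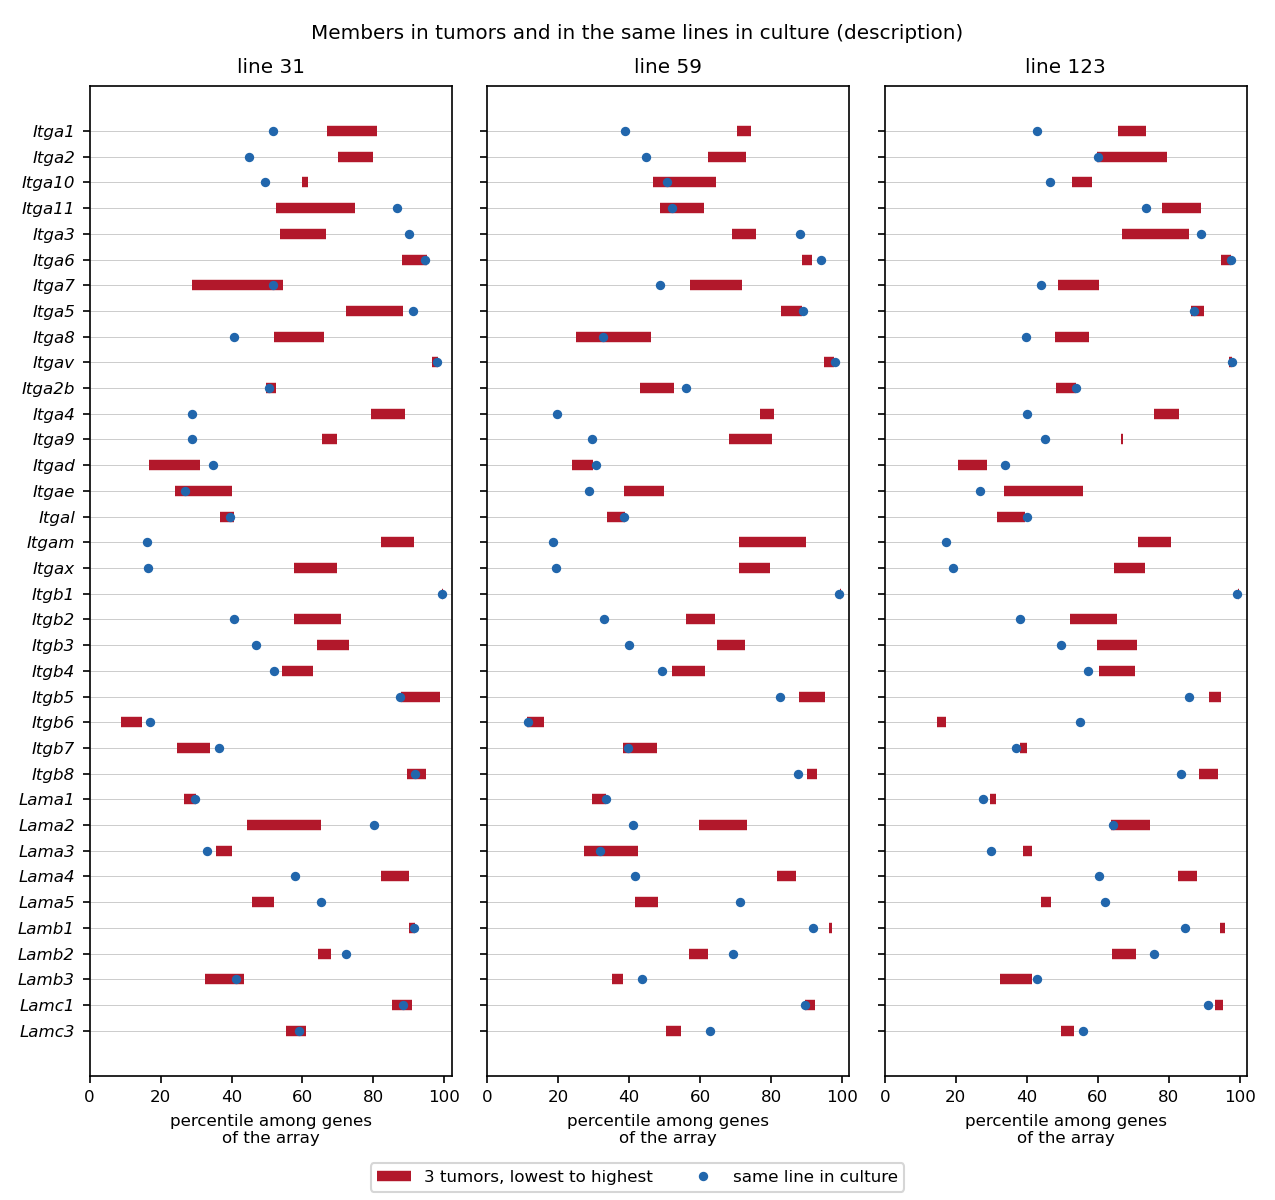
Percentile of each of the 36 genes among all genes of its array (horizontal axis) in 3 tumors (red bar, lowest to highest) and in the same line in culture (blue point), for lines 31, 59 and 123. Itgam, Itgax and Itga4 lie far to the right of their culture points in all 3 lines, Itga3 and Lama5 to the left, and Itgb1 and Itgav stay at the right edge.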

How the data were processed

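RNA was extracted with Trizol and 100 ng labelled, per the labels' protocols. The authors deposited 1 table of log2 RMA values for 34760 probe sets on 27 arrays; GCOS, Affymetrix Expression Console and RMA are named per the submitters' processing notes, with no role or order, and the genome build behind the probe annotation is not given in the sources used here. Of the probe sets, 21640 were listed with 1 gene, 1321 with several and 11799 with none; 954 genes had several probe sets, of which the one with the highest mean was kept. The deposited values were tested as they stand with limma 3.58.1 (R 4.3.3) over all 19937 genes, with Benjamini-Hochberg adjustment and a threshold of 0.05. The fits covered lines against NSCs, p53 mutant against WT lines, tumors against SubQ, and the 4 tumor lines against each other, by an F test and by contrasting 1 line with the average of the remaining 3. The procedure was tested on simulated data. Correlations used permutation tests in Python 3.11.15 (scipy 1.17.1).

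The members and the 14 gene lists (227 genes, 209 measured) were chosen with earlier results of these data known, and the lists are therefore given as counts and medians only. By the rule for named genes, every member may be named, called ones with their values, at most 10 in each direction by size of the log2 change, and of each list the counts and at most 4 called genes by size; sequences are shown for a few members with large called changes. Tln1, Agrn, the collagen IV chains and Fga fall outside it and were chosen after their values were seen. Alternatives were all probe sets averaged, a filter on low genes, trend and robust settings, centring, quantile normalization, leaving out each array, a replicate block, tumor line as a random block, and parts of the groups. No detection calls were used, and the number of arrays limits the precision.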

Additional observations from a re-analysis of the deposited data

Results flagged for a closer look

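A single line was set apart from the rest of its genotype group, relative to the range of that group, in 6 of 72 groups of values, where chance gives about 1 in 20, or 3.6. The gap to the next line was 0.666 to 0.952 of the range, which can be a small distance, as the 0.19 log2 of Itgae was. Among the p53 WT lines, line 123 was the lowest for Itga1, at a log2 level of 7.01 with the next line at 9.01, and line 331 was the lowest for Lama5, at 7.0 with the next at 7.86. Among the p53 mutant lines, line 116 was the lowest for Itga6, at 8.54 with the next at 10.03, and line 59 was the lowest for Itgb5, at 9.03 with the next at 9.61. Line 59 was also the highest for Itgae, at 6.39 with the next at 6.20, and line 28 the highest for Itgb7, at 7.32 with the next at 6.84.

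The 4 tumor lines differed by the moderated F test, over 12 tumors, in 5 genes. The gap between the highest and the lowest line mean was 1.97 for Itgb8, 1.88 for Itgax, 1.75 for Itga11, 1.54 for Itga6 and 1.09 for Lamb1, with adjusted p from limma of 0.00207, 0.00546, 0.0135, 0.034 and 0.0155.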

How the results depend on the processing

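Of the results for single genes under the alternatives, 5222 stayed on their side of the threshold, with no called change turning sign (genes not called could turn sign near 0). Another 95 lost the call, 21 gained one and 2 reversed. Both reversals were between tumors and SubQ after quantile normalization: Itgb5, to -0.0254, and Lama1, which was not called before, to 0.4073 (limma adjusted p = 0.0177). In Lama1, 4 tumors and 1 SubQ sample held one identical deposited value of 4.97. Lines against NSCs gave 8 higher and 2 lower genes, with 3 to 9 and 1 to 3 over the arrays left out (4 and 3 higher without NSC replicate 1 and 2), and 1 lower among genes above the median level. With p53 mutant lines alone Itga11 was not called (1.99, adjusted p = 0.0771). Over all genes the 2992 calls became 1416 and 1402 without NSC replicate 1 and 2. Between p53 mutant and WT lines no member was called with any line left out, and the count over all genes, 4, became 0 to 10. Tumors against SubQ gave 17 higher and 9 lower, with 13 to 17 and 6 to 9 over the arrays left out, and 4 lower among genes above the median level, where 7153 of 9968 genes were called against 15256 of 19937. Centring gave 18 higher and 6 lower, and quantile normalization 14 and 7. Over all 19937 genes, centring gave 6722 higher and 8152 lower, and quantile normalization 5195 and 6462. The calls over all genes were 14204 to 15249 over the arrays left out.

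The 5 calls among tumor lines became 3 to 6 over the tumors left out. Line 1 had 0 higher (0 to 2) and 2 lower (2 to 3), line 31 had 1 lower (0 to 2), line 59 had 1 higher (0 to 1) and line 123 had 2 higher (0 to 2, and 1 after centring). Over all genes, leaving out a tumor moved 1010 calls to 469 to 1659, and those of lines 1, 31, 59 and 123 to 329 to 1388, 47 to 562, 86 to 304 and 44 to 278. The 1 partner pair became 0 after centring and 0 to 1 over the lines left out. The causes were not tested.

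Same-numbered samples did not deviate together: 3 of 30 tissue pairs had a correlation over 0.1 (-0.28 to 0.34), so the samples share only a number. With the replicate number as a block, lines against NSCs gave 8 higher and 2 lower, with Lamc1 lost and Lama2 gained. That fit rests on lines 3 and 28, since no other line shares a number with an NSC culture, and does not check the comparison of all lines. Tumors against SubQ gave 16 higher and 9 lower, and the tumor lines 4, with 1 higher and 2 lower in line 1, 1 lower in line 31, 1 higher in line 59 and 1 higher in line 123. Over all genes these fits called 3032, 15175 and, among the tumor lines, 892. Signal over background could not be judged per probe set, so low levels such as those of Itgb6 are least certain.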
